A study of Mus musculus with 3 samples.

Results

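The matrix metalloproteinases (MMPs), the ADAM and ADAMTS proteases, the ADAMTS-like proteins and their inhibitors, the TIMPs and Reck, were followed in cultured cells that lack the serine/threonine kinase Pim1. The genes were taken by name: every probe that was not a control and whose gene symbol on the array began with Mmp and a number, Adam and a number or Adamts, or was Timp1 to Timp4 or Reck. This gave 132 of 41174 probes and 77 of 19757 named genes. Primary mouse aortic endothelial cells, as the labels call them, had been cultured from Pim1-/- and from wild-type mice. Both groups were FVB/N animals of 12 weeks that the labels give as female. Both were grown on gelatine in serum-containing medium, and RNA was taken 24 hours after seeding. The RNA was amplified and hybridised to 3 two-colour arrays. On each, Cy5 (red) carried the Pim1-/- RNA and Cy3 (green) that of the wild type, with no dye swap. All ratios below are log2 of knockout over wild type.

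The labels call the 3 arrays biological replicates, but do not say how many animals gave each culture or whether the wild-type RNA was 1 pool. The p-values therefore cover just the variation among 3 arrays, a number that limits the precision. Any bias of a dye falls on 1 genotype. The sense probe of Pim1 was lower in the knockout on all 3 arrays (log2 ratio −1.04 ± 0.10, SD, n = 3, limma adjusted p = 0.00301). The extent of the deletion is not given in the labels. The X-linked transcript Xist was detected above background by each of its probes on 3 arrays for the wild type, and by its brightest probe on 0 arrays for the knockout, where its 3 other probes were above background on 1 or 2 arrays. The Y-linked genes Eif2s3y and Ddx3y were above background, by their brightest probes, on 3 arrays for the knockout and on 0 for the wild type. These values go against the label female for the knockout RNA, so genotype and sex cannot be told apart in any ratio that follows.

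Array 1 stood apart from the others. Over the 49 family genes that could be tested, Pearson's r between arrays 2 and 3 was 0.961, and array 1 correlated with them at 0.688 and 0.681, as a description across genes of arrays that share a slide. Over all genes the same values were 0.926, 0.702 and 0.717. The cell type of the label was marked only in part. Of 13 endothelial genes, Cdh5, Erg, Pecam1 and Tie1 were above background on no array in either channel. Emcn, Robo4, Tek and Vwf were so on 1 array for the wild type and on 0 for the knockout. Eng, Egfl7 and Fli1 were above background on all 3 arrays in both channels, and Kdr and Esam on 3 wild-type and 2 knockout arrays. The values of the markers of other cell types are given beside the results. In cultures of mixed cells, fewer cells of a type and less RNA per cell cannot be told apart.

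MMPs are zinc-dependent endopeptidases that are made as inactive precursors and cut collagens, other matrix proteins, and each other. ADAMs are membrane-anchored relatives, several of which shed the outer parts of growth factors, cytokine receptors and adhesion molecules from the cell surface. ADAMTS proteases are secreted and act on proteoglycans and procollagens, while ADAMTS-like proteins share their accessory domains but have no protease domain. TIMPs are small secreted inhibitors that bind the active site, and Reck is a membrane-anchored inhibitor. In the vessel wall these proteins remodel the matrix during the growth of new vessels.

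Of the 77 genes, 40 were well above background by some probe in both channels on all 3 arrays, 25 on no array in either channel, and 12 in 1 channel or on some arrays. Testing needed a probe well above background in either channel on 2 or more arrays, and the brightest such probe stood for its gene. A gene was called at an adjusted p under 0.05 (limma, Benjamini-Hochberg over all tested probes). Of the 49 genes tested, 15 were called (30.6%), against 20.1% of all 13473 genes tested. Of the 15, 7 were higher in the knockout (14.3% of those tested, 8.65% of all genes) and 8 were lower (16.3%, against 11.4%). Both called and at least 2-fold were 9 of 49 (18.4%, against 6.69% of all genes). The median log2 ratio was 0.02, beside −0.02 over all genes, and the median size of a ratio was 0.31, beside 0.21.

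The called genes were spread over the families as follows. Among the MMPs, 2 of 14 tested genes were higher and 1 was lower. Among the ADAMs, 2 of 16 were higher and 3 lower. All 3 called ADAMTS genes, of 11 tested, were higher, and all 3 ADAMTS-like genes tested were lower. Of the 4 TIMPs and Reck, 1 was lower. With each array centred on its median in place of loess, 13 genes were called, 8 higher and 5 lower, against 13.8% of all genes called.

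**Figure D1:**
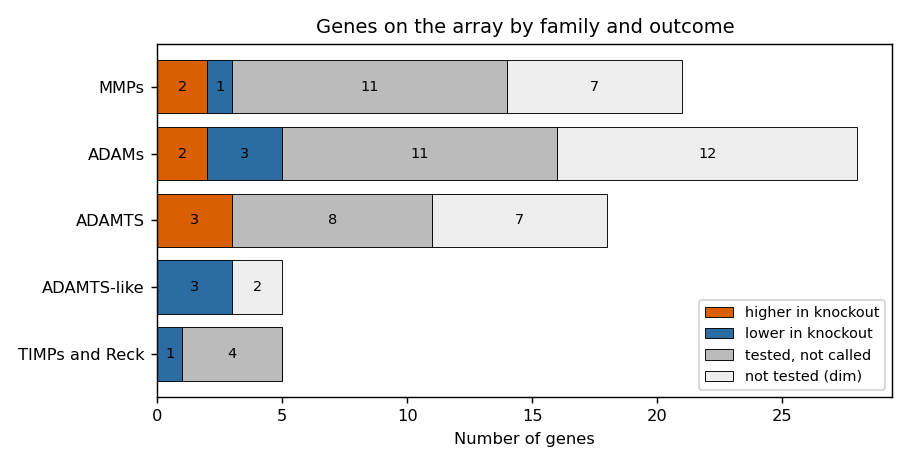
Bars count the genes on the array in each family (x axis, number of genes), split into those called higher in the knockout, called lower, tested but not called, and too dim to test. The ADAMTS bar has 3 higher and 0 lower genes, and the ADAMTS-like bar 3 lower and 0 higher.

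Several secreted MMPs lie side by side on mouse chromosome 9, and the array held 8 of them: Mmp7, Mmp20, Mmp10, Mmp8, Mmp1a, Mmp3, Mmp12 and Mmp13. The stretches of 100 bases before the annotated start are shown for 5. Of these, Mmp13, Mmp3, Mmp10 and Mmp1a share a short motif but differed in signal or ratio here, and Mmp8 lacks it. How alike the stretches are as a whole was not measured. They are from RefSeq (GRCm38.p6), all on the plus strand: Mmp13 at chr9:7272414-7272513, Mmp3 at chr9:7445722-7445821, Mmp10 at chr9:7502242-7502341, Mmp1a at chr9:7464041-7464140 and Mmp8 at chr9:7558329-7558428. Capitals mark matches to TGANTCA, an AP-1-like motif, where N is any base.
Mmp13: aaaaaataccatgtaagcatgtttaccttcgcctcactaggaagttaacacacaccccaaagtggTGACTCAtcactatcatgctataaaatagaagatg
Mmp3: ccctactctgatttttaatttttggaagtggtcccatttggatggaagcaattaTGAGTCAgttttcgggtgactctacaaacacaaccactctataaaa
Mmp10: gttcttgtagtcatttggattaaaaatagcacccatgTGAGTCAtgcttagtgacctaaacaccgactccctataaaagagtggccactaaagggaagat
Mmp1a: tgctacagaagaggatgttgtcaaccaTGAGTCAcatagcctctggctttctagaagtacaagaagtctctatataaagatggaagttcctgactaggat
Mmp8: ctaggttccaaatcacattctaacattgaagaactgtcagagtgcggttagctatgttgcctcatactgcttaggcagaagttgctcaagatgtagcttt

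The motif reads the same way on both strands apart from its middle base. In the 250 bases before the start it was found in 7 of these 8 genes, in 3 of the other 38 family genes with a promoter entry, and in 6.75% of all 32851 RefSeq windows. The match read TGAATCA in Mmp20 and Adam25, and TGAGTCA or TGACTCA in the other family genes that had it. Among the 5 genes shown the match began 35 bases before the start in Mmp13, 46 in Mmp3, 63 in Mmp10 and 73 in Mmp1a, and Mmp8 had none in the window. The letters TATAAA, searched on both strands, were in 6 of the 8 genes, in 4 of the other 38 and in 12.4% of all windows. A match is a stretch of letters and was not tested as a site. The motifs cannot overlap, since no end of one matches a start of the other.

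Mmp13, the collagenase that cuts fibrillar type II collagen most readily, rose in the knockout. Its probe (chr9:7282762-7282821, mm8) had log2 ratios of 0.49, 1.53 and 1.49 on arrays 1, 2 and 3. All 3 lay above 0, with array 1 the lowest. The mean was 1.17 ± 0.59 (SD, n = 3), a 2.25-fold rise with an adjusted p of 0.0248 by limma. The call was lost without replicate 2 (adjusted p = 0.147, limma), without replicate 3 (0.159) and with dim probes kept in the test (0.0555).

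Mmp3, stromelysin-1, which cuts proteoglycans and activates other MMP precursors, split the arrays. Its log2 ratios were −1.25, 2.20 and 2.22 (chr9:7455751-7455810, mm8). The knockout was lower on array 1 and higher on arrays 2 and 3, by similar amounts. The mean of 1.06 ± 2.00 (SD, n = 3) was not called (limma adjusted p = 0.371, 95% interval −0.71 to 2.82). Without replicate 1 the log2 ratio was 2.21 and passed the threshold, and with weights for array quality it was 1.83 (limma adjusted p = 0.0197).

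The other genes of the cluster were dim or near 0. Mmp10, stromelysin-2, had log2 ratios of −0.04, 0.19 and 0.10, a mean of 0.08 ± 0.12 (limma adjusted p = 0.623). Mmp8, the neutrophil collagenase, had 0.13, 0.83 and 0.40. Its knockout signal was above background on 3 arrays and its wild-type signal on 0. The bound was 1.37-fold higher in the knockout, with no call (limma adjusted p = 0.107). A bound takes the bright channel's mean over an upper limit for the dim one, which is, on each array, the higher of the dimmest signal still well above background and the probe's own signal. For Mmp8, and for Mmp15, Adamts6 and Adamts8 below, the probe's own signal was the higher, so the bound is the same as the measured ratio. A bound takes no account of the spread between arrays, so for a gene that was not called it is not a minimum change. Mmp1a, Mmp7, Mmp12 and Mmp20 were not well above background on any array in either channel. Mmp8 and Mmp10 were named for their place in the cluster, with their values known.

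Mmp19, a secreted protease that cuts basement membrane proteins, rose on all arrays. The ratios were 0.69, 1.76 and 1.23 (chr10:128202114-128202173, mm8), and array 1 was again the lowest. The mean was 1.23 ± 0.54 (SD, n = 3), or 2.34-fold (limma adjusted p = 0.0179). It lost its call without replicate 2 (0.0813) and without replicate 3 (0.124). With the scanner software's own ratios the mean was 2.02 (log2, as for the other software ratios below).

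The gelatinases, which cut denatured collagen and type IV collagen, gave no call. Mmp2 had log2 ratios of −0.20, 0.24 and 0.22, below 0 on array 1 and above it on the others. Its mean was 0.08 ± 0.25 (SD, n = 3, limma adjusted p = 0.703), with a 95% interval of −0.23 to 0.40, which leaves out a 2-fold difference in either direction. Mmp9 was not well above background on any array by either of its probes. The remaining secreted MMPs tested, Mmp11 and Mmp28, had means of −0.13 and −0.52 and were not called, and Mmp21 was not above background.

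Of the 7 membrane-bound MMPs on the array, 6 were tested. Mmp24 (MT5-MMP), known for shedding of N-cadherin, fell by a small and even amount. The arrays gave log2 ratios of −0.59, −0.62 and −0.51 (chr2:155509226-155509285, mm8), with little spread between the arrays. The mean was −0.57 ± 0.06 (SD, n = 3), or 1.49-fold lower (limma adjusted p = 0.0150). The call was lost without replicate 2 (0.134), without replicate 3 (0.117) and with the mean of its tested probes (−0.33, 0.0661), and the software's ratio was −1.53.

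Mmp14 (MT1-MMP), which activates the Mmp2 precursor at the cell surface and cuts fibrillar collagen, gave a different answer by its probes. The brightest probe (chr14:53395337-53395396, mm8) had log2 ratios of 0.28, 0.36 and 1.04. All were above 0 and array 3 was the highest. The mean of 0.56 ± 0.42 was not called (limma adjusted p = 0.0851, 95% interval 0.13 to 0.99).
The dimmer probe (chr14:53394143-53394202, mm8) had 0.90, 1.02 and 1.33, a mean of 1.08 ± 0.22 that passed the test (limma adjusted p = 0.00476). The probes differed by −0.52 ± 0.21 (n = 3), in the same direction on every array. With the mean of the tested probes, Mmp14 was called at 0.82 (limma adjusted p = 0.0196), with median centring at 0.89 (0.0459) and with array weights at 0.73 (0.0152). The other membrane MMPs tested, Mmp15, Mmp16, Mmp17 and Mmp23, had means from −0.26 to 0.24 and were not called. Of these, Mmp15 was above background only in the wild type, with a bound of 1.20-fold lower in the knockout (limma adjusted p = 0.144). Mmp25 was not above background.

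Adam23 rose on all arrays. It is an ADAM without protease activity that binds integrins and is best known from the nervous system. Its log2 ratios were 2.01, 2.36 and 2.29 (chr1:63527041-63527100, mm8). The arrays lay close together, array 1 included. The mean was 2.22 ± 0.18 (SD, n = 3), a 4.66-fold rise (limma adjusted p = 0.000477). A further probe of the gene had 0.87, 1.05 and 1.19, a mean of 1.03 that was also called (0.00391). Both probes rose, but by amounts that differed by 1.19 ± 0.11 on the log2 scale, and their mean was 1.63.

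Adam12, which is made in activated mesenchymal cells and can cut insulin-like growth factor binding proteins and HB-EGF, rose less. On the 3 arrays it had log2 ratios of 1.08, 0.82 and 0.48, here with array 1 the highest. The mean was 0.79 ± 0.30 (SD, n = 3), or 1.73-fold (limma adjusted p = 0.0194), and the software's ratio was 2.15 and that with an offset of 0 was 1.42. The call was lost without replicate 2 (0.131) and without replicate 3 (0.0629).

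Adam8, a shedding protease best known from leukocytes, fell the most among the ADAMs. It had log2 ratios of −1.98, −2.03 and −1.63 (chr7:139830349-139830408, mm8). All arrays lay far below 0. The mean was −1.88 ± 0.22 (SD, n = 3), or 3.69-fold lower (limma adjusted p = 0.000843). Of the leukocyte markers tested, 2 of 4 fell, against 11.4% of all genes, Lyz2 by 1.78 and Cd14 by 0.87 on the log2 scale. Csf1r and Cd68 had −0.31 and 0.00, Adgre1 and Itgam were on no array above background, and the summed level of the list was 11.13 to 11.34 (log2) in the knockout and 11.80 to 12.25 in the wild type. Their part in the fall of Adam8 was not tested.

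Adam9 and Adam33 fell by smaller amounts. Adam9, a broadly made sheddase, had log2 ratios of −0.74, −0.88 and −0.50, a mean of −0.71 ± 0.19 (SD, n = 3, limma adjusted p = 0.0145). With median centring it was −0.44 and no longer called (0.190). Adam33, made mainly in mesenchymal and smooth muscle cells, had −1.14, −0.74 and −0.31. Its arrays spread widely, and the mean of −0.73 ± 0.42 passed the test narrowly (limma adjusted p = 0.0424). Both calls were lost without replicate 2 (0.122 and 0.198) and without replicate 3 (0.0741 and 0.0764). That of Adam33 was also lost with median centring (0.0589), with dim probes kept (0.0788) and with the mean of its tested probes (−0.47, 0.0820), and its software ratio was −1.49.

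The main sheddases were not called. Adam10, which sheds Notch, cadherins and many other proteins, had log2 ratios of 0.10, −0.15 and 0.05, on both sides of 0. Its mean was 0.00 ± 0.13 (SD, n = 3, limma adjusted p = 1.00), with a 95% interval of −0.25 to 0.25. Adam17, the TNF-alpha converting enzyme, had 0.37, 0.36 and 0.04, a mean of 0.26 ± 0.19 (limma adjusted p = 0.183, interval −0.02 to 0.53).
For both genes the interval leaves out a 2-fold difference. Adam15, which carries an integrin-binding RGD motif in human, had −0.21, −0.44 and −0.43, with a mean of −0.36 ± 0.13 (limma adjusted p = 0.0662). It passed the threshold without replicate 1 (−0.43, 0.00357) and with array weights (−0.41, 0.0137).

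The 16 ADAMs known from testis and sperm served as a view of dim genes. Of these, 10 were above background on no array, 4 in part, and only Adam1a and Adam4 in both channels on all arrays. None of the 5 that were tested was called, with means from −0.44 to 0.12. Adam5 was above background in the wild type alone, on 2 arrays. Its log2 ratios were −0.96, 0.15 and −0.01, on both sides of 0, with a bound of 1.17-fold lower (limma adjusted p = 0.475). Adam22 was not above background on any array, and Adam11, Adam19 and Adam28 had means from −0.06 to 0.02.

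The proteoglycan-cleaving ADAMTS proteases held all ADAMTS genes that rose: 3 of the 6 tested. Adamts15, which cuts aggrecan and versican, had log2 ratios of 1.10, 3.02 and 2.03 (chr9:30649013-30649072, mm8). The arrays differed by up to 1.91 but all lay above 1. The mean was 2.05 ± 0.96 (SD, n = 3), a 4.14-fold rise (limma adjusted p = 0.0177). The call was lost without replicate 2 (0.0547) and without replicate 3 (0.119), and the software's ratio was 3.80 and that with an offset of 0 was 2.97.

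Adamts9, which cuts versican, had log2 ratios of 0.92, 1.40 and 0.93 (chr6:92738561-92738620, mm8). These lay closer together than those of Adamts15, with array 2 the highest. The mean was 1.08 ± 0.28 (SD, n = 3), or 2.12-fold (limma adjusted p = 0.00670), and without replicate 3 it missed the threshold (0.0594). Adamts4, the aggrecanase-1, had 0.72, 1.07 and 0.75 (chr1:173096215-173096274, mm8), a mean of 0.85 ± 0.20 and 1.80-fold (0.00880, limma). It lost its call without replicate 2 (0.0781) and without replicate 3 (0.0776), and the software's ratios for Adamts9 and Adamts4 were both 1.79.

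Adamts5, the aggrecanase-2, was not called. Its log2 ratios were −0.51, −0.14 and −0.13, all below 0, and the mean was −0.26 ± 0.22 (limma adjusted p = 0.199, 95% interval −0.55 to 0.03). Adamts1, which cuts versican and restrains vessel growth, had 1.07, 0.11 and 0.28. Only array 1 was far from 0, and the mean of 0.49 ± 0.51 was not called (limma adjusted p = 0.167). The genes lie next to each other on chromosome 16 (probes chr16:85683995-85684054 and chr16:85751628-85751687, mm8). Adamts8 was above background only in the wild-type channel. Its log2 ratios were 0.02, −0.37 and −0.32, with a bound of 1.17-fold lower and no call (limma adjusted p = 0.254). Adamts20 was not above background.

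Of the procollagen N-proteinases, which trim fibrillar procollagens, Adamts2 and Adamts14 were tested and had means of 0.23 and −0.02, with no call, and Adamts3 was too dim to test. Of the other 8 ADAMTS genes, 3 were tested and had means from 0.15 to 0.52 with no call. Of these, Adamts6 was dim in the wild type. Its log2 ratios were −0.06, 0.19 and 0.31, with a bound of 1.11-fold higher (limma adjusted p = 0.431). Adamts12, Adamts13, Adamts16 and Adamts19 were not above background, and Adamts18 was so on 1 array.

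All 3 ADAMTS-like genes that could be tested fell, each beyond 2-fold. Adamtsl3, a secreted matrix protein also called punctin-2, had log2 ratios of −3.23, −2.60 and −2.29 (chr7:82489684-82489743, mm8). Every array lay below −2, array 1 lowest. The mean was −2.70 ± 0.48 (SD, n = 3), or 6.52-fold lower (limma adjusted p = 0.00124), and the software's ratio was −3.80 and that with an offset of 0 was −3.36. A dimmer probe of the gene had −0.63, −0.13 and −0.08 and was not called (−0.28, 0.234). That probe was above background on 0 arrays for the knockout and on 2 for the wild type, and its bound was 1.18-fold lower in the knockout. The mean of both probes was −1.49 and was called (0.00521).

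Adamtsl4, a fibrillin-binding protein of microfibrils whose loss in human displaces the eye lens, had log2 ratios of −1.65, −1.33 and −1.38 (chr3:95762006-95762065, mm8). The arrays agreed closely. The mean was −1.45 ± 0.17 (SD, n = 3), or 2.74-fold lower (limma adjusted p = 0.00145). Adamtsl5, which also binds fibrillin microfibrils, had −1.59, −1.12 and −1.46 (chr10:79744461-79744520, mm8).
Its mean was −1.39 ± 0.24 (SD, n = 3), or 2.62-fold lower (limma adjusted p = 0.00257). Of its other probes, 1 fell by 1.21 (0.00344) and 1 had −0.38 and was not called (0.0898). Adamtsl1 and Adamtsl2 were not above background on any array.

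**Figure D2:**
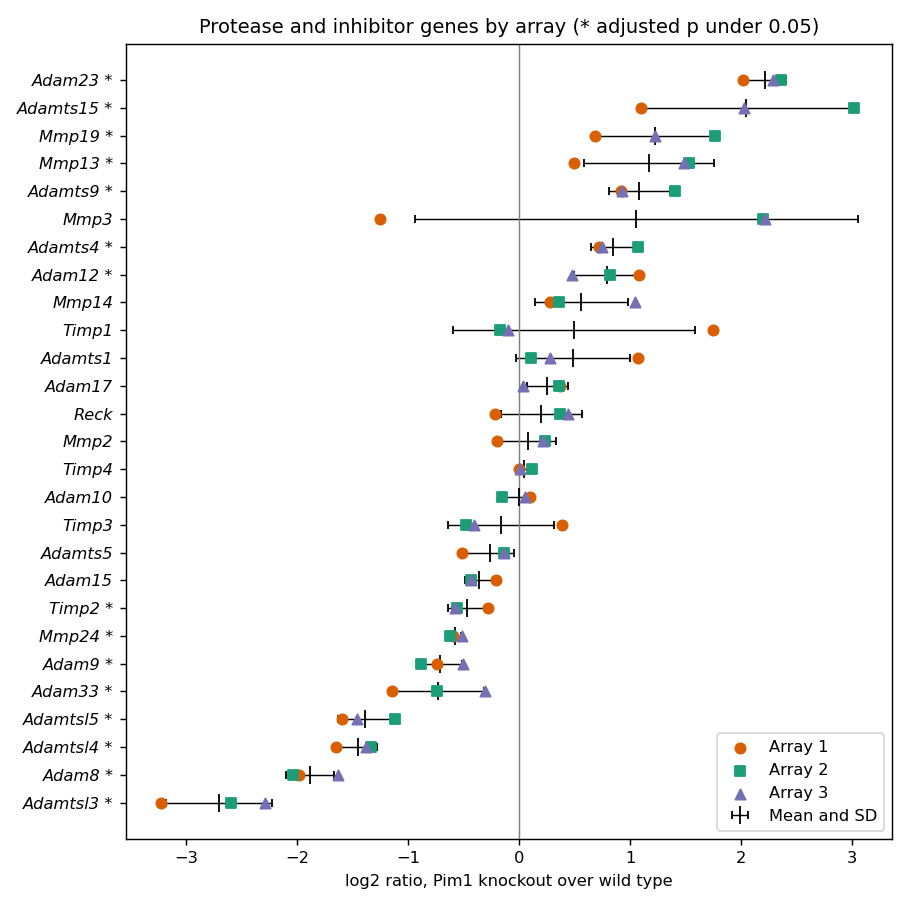
Log2 ratios of knockout over wild type (x axis) on each array are shown for 27 genes, with the mean and SD over 3 arrays as a bar; an asterisk marks an adjusted p under 0.05. Adam23 and Adam8 have their 3 arrays close together, while array 1 of Mmp3 and of Timp1 lies on the other side of 0 from arrays 2 and 3.

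Among the inhibitors only Timp2 was called. Timp2, which besides inhibiting MMPs helps Mmp14 to activate the Mmp2 precursor, had log2 ratios of −0.28, −0.56 and −0.57. All were below 0 and small. The mean was −0.47 ± 0.17 (SD, n = 3), or 1.39-fold lower (limma adjusted p = 0.0393). The call did not hold with median centring (−0.04, 0.917), with an offset of 0 (0.0681), with the software's ratios (0.0789), without replicate 2 (0.233) or without replicate 3 (0.238).

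Timp1, an inhibitor encoded on the X chromosome, had 2 probes, shown because both gave the same split of the arrays from different stretches of the gene. In the array's own coordinates (mm8, plus strand) they lie at chrX:20029738-20029797 and chrX:20031508-20031566.
A_51_P512384: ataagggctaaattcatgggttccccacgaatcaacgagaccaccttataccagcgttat
A_52_P87713: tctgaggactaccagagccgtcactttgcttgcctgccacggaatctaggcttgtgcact
The brighter probe, A_52_P87713, had log2 ratios of 1.75, −0.17 and −0.10, and A_51_P512384 had 1.44, −0.00 and −0.09. The knockout was higher on array 1 only, by both probes. The mean of the brighter probe was 0.49 ± 1.09 (SD, n = 3, limma adjusted p = 0.455, 95% interval −0.49 to 1.48), and without replicate 1 it was −0.14 (0.389).

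Timp3, which stays bound to the matrix and also inhibits Adam17 and the aggrecanases, split in the same way. Its log2 ratios were 0.39, −0.48 and −0.40, above 0 on array 1 only. The mean was −0.16 ± 0.48 (SD, n = 3, limma adjusted p = 0.616). Without replicate 1 it was −0.44 and called (0.00327), and with median centring its sign turned to 0.21 without a call. Reck had −0.22, 0.37 and 0.44, below 0 on array 1 only, with a mean of 0.20 ± 0.36 (limma adjusted p = 0.447). It too passed without replicate 1 (0.41, 0.00598). Timp4 passed the background test in the knockout on 0 arrays and had 0.00, 0.11 and 0.01, a mean of 0.04 ± 0.06 (limma adjusted p = 0.811).

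Array 1 lay at least 1 log2 unit from the mean of the other arrays in 5 of the 49 genes (10.2%), against 5.16% of all genes. These were Mmp3, Timp1, Adamts15, Mmp13 and Adam5. The same count was 2 genes for array 2 and 1 for array 3. Of the genes on both sides of 0, 18 in all, none was called, and all 15 called genes had 1 sign on all arrays. A test of 3 ratios against 0 seldom calls a gene with mixed signs, so this is no separate evidence of agreement.

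**Figure D3:**
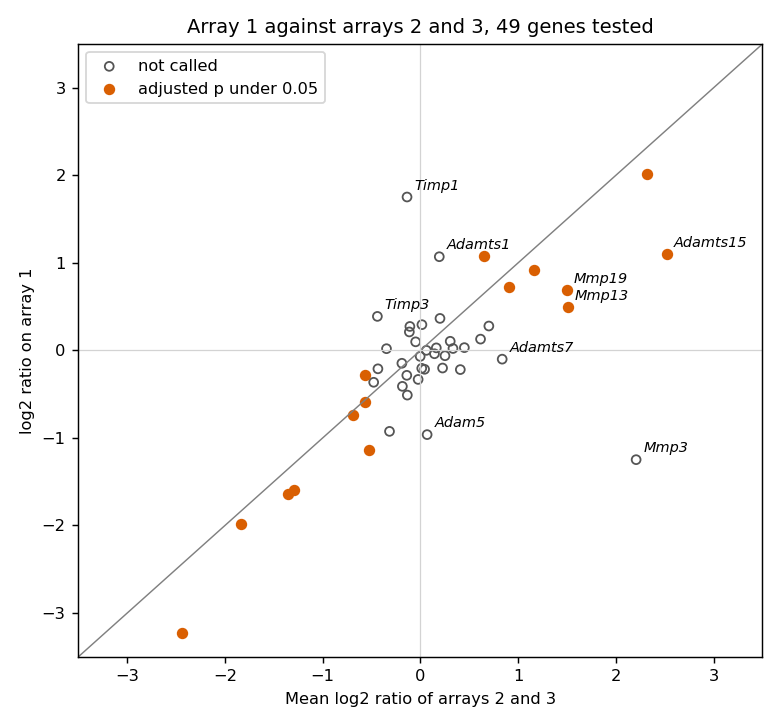
Each point is 1 of the 49 genes tested, with the mean log2 ratio of arrays 2 and 3 on the x axis and that of array 1 on the y axis; filled points had an adjusted p under 0.05 and the diagonal marks equal values. Mmp3 lies below the diagonal (−1.25 against 2.21) and Timp1 above it (1.75 against −0.14), while Adam23 lies near it (2.01 against 2.32).

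The counts turned on which arrays were used. Without replicate 1, 28 of 47 genes were called, 15 higher and 13 lower, against 42.2% of all genes. Without replicate 2 there were 6 of 47 (5.41% of all genes) and without replicate 3 there were 5 of 47 (4.63%). The prior degrees of freedom, which set the weight of the variance shared across probes, were 25.6 without replicate 1 and 3.44 with all arrays. The 13 genes added were Mmp3, Mmp8, Mmp14, Mmp23, Mmp28, Adam1a, Adam15, Adamts2, Adamts7, Adamts8, Adamts10, Timp3 and Reck. The calls of Adam23, Adam8, Adamtsl3, Adamtsl4 and Adamtsl5 held in all 14 alternatives that were run for single genes.

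Of the 20 genes with more than 1 tested probe, 17 had the same sign by all of them. The 3 others, Adamts10, Adam19 and Adamts14, had no called probe. Over all probes tested, 17.1% were called. Among the 8 genes with a called probe, all tested probes were called in 1, Adam23, and some in 7. Adamts9 had dimmer probes at 0.34 (limma adjusted p = 0.0732) and 0.25 (0.156), and Adam12 had one at 0.54 (0.0518). The dimmer probes of Adam33 and Mmp24 had −0.20 (0.290) and −0.08 (0.641). Of these, the Adamts9 probe at 0.25 and that of Adam12 were not above background in the wild type, and that of Mmp24 not in the knockout. The probes lie in different stretches of a gene, and whether they read different transcripts was not tested.

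**Figure D4:**
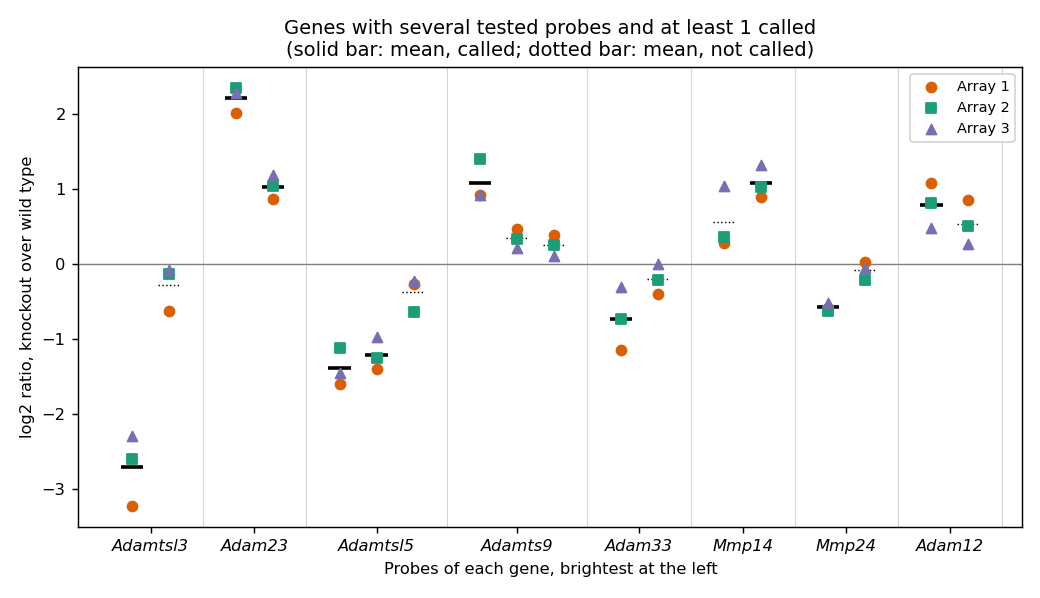
Log2 ratios on each array (y axis) are shown for every tested probe of the 8 genes with several tested probes and at least 1 called, the brightest at the left within each gene; solid bars are means of called probes and dotted bars means of others. The brightest Adamtsl3 probe (mean −2.70) and the dimmer one (−0.28) stand furthest apart.

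Genes that work with these proteases were taken from a list of activators, partners, inhibitors and targets. Of 107 such genes, 92 were tested, 16 were higher in the knockout and 23 were lower. Over all genes, 8.65% were called higher and 11.4% lower, 20.1% in all, and the group counts that follow stand against the same shares. The median log2 ratio of the list was −0.13, beside −0.02 over all genes. Of these 39 called genes, 39 kept their call when replicate 1 was left out, 13 when replicate 2 was and 14 when replicate 3 was, in settings that called 42.2%, 5.41% and 4.63% of all genes.

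The plasminogen system, whose product plasmin activates several MMP precursors, had 1 gene higher and 3 lower of 9 tested. Serpine2 (protease nexin-1), an inhibitor of plasminogen activators and thrombin, had log2 ratios of −4.29, −4.21 and −4.03. That was an 18.1-fold fall on arrays that lay close together (limma adjusted p = 0.000144), and it held without any 1 replicate. The tissue plasminogen activator Plat rose by 0.78 ± 0.43 (0.0380, limma), and the plasminogen receptor subunits S100a10 and Anxa2 fell by 0.71 ± 0.13 (0.0107) and by 0.60 ± 0.08 (0.0143). These 3 calls were lost without replicate 2 or 3.

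Furin and related convertases cut the propeptides of ADAMs, ADAMTS proteases and membrane MMPs. Of 6 tested, Furin rose by 0.59 ± 0.11 (limma adjusted p = 0.0170), Pcsk6 fell by 0.83 ± 0.12 (0.00631) and Pcsk5 was at least 1.32-fold lower (0.0496). The last is a bound, since Pcsk5 was not above background in the knockout on any array. None of the 3 calls held without replicate 2 or without replicate 3. Among the astacin and neprilysin-like proteases, Bmp1 and Ece1 rose by 0.52 and 0.62 and Ece2 and Phex fell by 0.70 and 0.85, of 7 tested, and all 4 calls were lost without replicate 2 and without replicate 3. Bmp1 removes procollagen C-propeptides and Ece1 makes endothelin.

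Of 14 partners and regulators of sheddases, 1 was higher and 3 were lower. Rhbdf2 (iRhom2), which brings Adam17 to the cell surface, had log2 ratios of −2.88, −2.67 and −2.77. The 3 arrays differed by little, and the fall was 6.83-fold (−2.77 ± 0.10, SD, n = 3, limma adjusted p = 0.000271) and held without any 1 replicate, while Adam17 itself was not called. Tspan15, a tetraspanin that steers Adam10 towards cadherin substrates, fell by 0.62 ± 0.20 (0.0213), Pacsin3 fell by 0.85 ± 0.42 (0.0289), and Mad2l2, which binds the tail of Adam9 in human, rose by 0.46 ± 0.18 (0.0441). These last 3 calls were lost without replicate 2 and without replicate 3.

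The transcripts of proteins that ADAMs shed moved in both directions, 7 higher and 7 lower of 32 tested. The largest were Icam1 and Vcam1, adhesion molecules for leukocytes, Cxcl16, a membrane-bound chemokine, and Areg, a ligand of the EGF receptor. Icam1 fell by 2.31 ± 0.66 (limma adjusted p = 0.00460) and Vcam1 rose by 1.96 ± 0.25 (0.000953). Cxcl16 rose by 1.83 ± 0.40 (0.00281) and Areg fell by 1.80 ± 0.24 (0.00111). All 4 held without any 1 replicate. The EGF receptor ligands Hbegf and Btc, named after their values were seen, fell by 1.77 ± 0.96 (0.0268) and by 1.22 ± 0.38 (0.00852), and both lost the call without replicate 2. Hbegf lost it without replicate 3 as well (0.155). Tgfa, Ereg, Epgn and Egf, ligands of the same receptor, had −0.31, −0.16, 0.01 and −0.01 and were not called. The related ligand Nrg1 rose by 0.62 ± 0.15 (limma adjusted p = 0.0175), a call lost without replicate 2 (0.0927) and without replicate 3 (0.137). Tnfrsf1b (1.30) and Mertk (−1.27) were called with larger changes than Btc. Mertk was above background on 3 arrays for the wild type but on only 1 for the knockout.

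Of 10 tested genes in a mixed group of other inhibitors, enhancers, clearance receptors and related proteins, 2 were higher and 1 lower. Pcolce2, a procollagen C-proteinase enhancer, fell by 3.35 ± 0.07 or 10.2-fold (limma adjusted p = 0.000194). Thbs2, a thrombospondin through which MMP2 is taken up and cleared, rose by 3.06 ± 0.28 or 8.36-fold (0.000357). Both held without any 1 replicate. The clearance receptor Lrp1 rose by 0.42 ± 0.14 (0.0449) and lost its call without replicate 2 (0.269) and without replicate 3 (0.233).

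Of 14 proteoglycan and glycoprotein substrates, 2 were higher and 5 lower. Acan (aggrecan), the substrate after which the aggrecanases are named, had log2 ratios of −2.50, −2.77 and −3.10. It fell 6.91-fold (−2.79 ± 0.30, SD, n = 3, limma adjusted p = 0.000479), and Matn3, a matrix linker protein, fell by 1.29 ± 0.16 (0.00199). Vcan (versican) had 0.57, 1.25 and 1.23, and rose by 1.02 ± 0.39 (0.0149). Ltbp1, which stores latent TGF-beta in the matrix, fell by 0.91 ± 0.30 (0.0134). The calls of Acan and Matn3 held without any 1 replicate, and those of Vcan and Ltbp1 were lost without replicate 2 or 3.

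Markers of other cell types moved beside these genes. The counts of each list stand against 8.65% of all genes called higher and 11.4% called lower. Of 8 fibroblast markers tested, 6 rose and 1 fell, and Fap was on no array above background. Their summed level (log2) on arrays 1, 2 and 3 was 17.66, 17.61 and 17.79 in the knockout channel. In the wild type it was 17.64, 17.68 and 17.42, so the knockout was lower on array 2 only. Col3a1 had log2 ratios of 1.58, 3.74 and 3.96, Dcn 1.68, 3.59 and 2.84, Lum 1.50, 3.18 and 2.15, and Pdgfra 1.24, 2.58 and 2.96. Array 1 was the lowest of the 3 in each of these 4. It was the highest in Postn (1.39, 1.36 and 1.38), Col1a1 (0.79, 0.33 and 0.73) and Thy1 (0.99, 0.26 and 0.31), and Col1a2 had −0.73, −0.84 and −0.53. Lum was above background on 3 arrays for the knockout but on only 1 for the wild type.

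Of 7 mesothelial and epithelial markers tested, 6 fell, with a summed level of 12.72 to 12.82 in the knockout and 16.14 to 16.52 in the wild type. Krt19 fell by 4.12, Msln fell by 3.41, and Epcam was on no array above background. The smallest fall was that of Upk3b, with a mean of −0.40. Wt1 lay above 0 on all arrays (0.21, 0.38 and 0.18) and was not called (mean 0.26, limma adjusted p = 0.136). It was above background on 3 arrays for the knockout but on only 1 for the wild type. Of 7 smooth muscle markers, 1 rose and 2 fell, with summed levels of 15.72 to 15.80 and 15.68 to 15.98. Of 5 endothelial markers tested, 2 rose, Eng by 2.51 and Egfl7 by 1.42, and 1 fell, Fli1 by 0.87. Kdr and Esam had −0.23 and −0.17 and were not called. The summed level of the 13 listed genes was 12.56 to 12.91 in the knockout and 11.37 to 11.61 in the wild type. Such a sum adds signals before the log, so bright genes weigh most, and it includes the genes too dim to test. It is therefore no measure of the endothelial list as a whole. The part of these cell types in the protease and inhibitor ratios was not tested.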

How the data were processed

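RNA of Pim1-/- (Cy5) and wild-type (Cy3) cells was measured on 3 two-colour arrays of 60-base probes from 1 slide and 1 scan date. The deposited files hold red and green mean pixel intensity and local background intensity for 45018 spots per array, together with the software's log10 ratio of red over green. The scanner software was Agilent Feature Extraction, version 9.5.3.1 by the file headers. The deposited value table holds a log10 ratio identical to the software's, so its scale and direction are known.

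Here, background was corrected with normexp (offset 50), which pulls ratios of dim probes towards 0, and log2 ratios were normalised by loess within each array, with 1639 control spots and outlier-flagged spots (121, 140 and 136) at weight 0. Flagged spots were then dropped and spots averaged to 41174 probes. No spot was saturated. Signals passed the software's background test for 53.8% to 57.2% of probes in the knockout and 58.4% to 62.6% in the wild type. Probe coordinates are mm8, per the file headers. Names were matched to RefSeq (GRCm38.p6): 24375 probes by accession, 115 by another accession, 6234 by symbol and 2387 by synonym, and 8063 stayed unnamed. The 253 antisense probes were left out of gene values. No probe of the families is among them, although 54 of 132 have no strand to compare.

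limma 3.58.1 (lmFit and eBayes, R 4.3.3) tested each mean of 3 log2 ratios against 0. Errors with ± are SDs over arrays. Bounds used channel values after loess and Aquantile, with the dim channel at the higher of the array's detection floor and the probe's own signal. The test was checked on simulated data with noise drawn independently for each array. This did not copy the departure of array 1, so it does not check the calls that turn on that array. The genes, families and lists were chosen with earlier results of these data known. Values on each array are given for every called family gene, for the TIMPs and Reck, and for Mmp2, Mmp3, Mmp9, Mmp14, Adam8, Adam10, Adam15, Adam17, Adamts1, Adamts4 and Adamts5, except that Mmp9 was too dim for a ratio to be given. Up to 4 called genes of each group of the partner list are named by size. Alternatives for the signal were raw intensities without subtraction, an offset of 0, the software's ratio and the value table. Others were median centring in place of loess, scaled arrays, dim probes kept or both channels required, array weights, robust variances with an intensity trend, the mean over a gene's probes, a threshold of 0.01, and 1 replicate left out.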

Additional observations from a re-analysis of the deposited data

How the results depend on the processing

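No paired analysis was possible because each array already pairs the genotypes and gives 1 ratio, so there is 1 group of ratios. Of the 49 tested genes, 15 were called, 7 higher and 8 lower. An adjusted p under 0.01 left 7 calls, 3 higher and 4 lower. The share of all genes at that threshold is not given here, so this count has nothing to stand against. Array weights gave 12 higher and 10 lower genes, in a setting that called 33.5% of all genes. Median centring gave 8 higher and 5 lower, where 13.8% of all genes were called. Leaving out 1 replicate gave from 5 to 28 calls, from 1 to 15 higher and from 4 to 13 lower. Over all genes, 2704 were called, and array weights called 4517. Without replicate 1, 2 or 3 the counts were 5558, 708 and 617. None of the 15 called genes turned its sign under any alternative, and 5 kept their call in all 14. Of the genes that were not called, Adam10 turned to −0.0287 without background subtraction, to −0.0129 with an offset of 0 and to −0.00955 with array weights, and lay between −0.0488 and 0.0760 when 1 replicate was left out. Timp4 turned to −0.0716 with the software's ratio and with the value table, and Timp3 to 0.21 with median centring. Timp1 lay between −0.14 and 0.82 when 1 replicate was left out. The cause of these changes was not tested. Genes near background have ratios that the offset pulls towards 0, so a difference in them may not be detectable at this signal.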
